A study of Homo sapiens with 12 samples.

Results

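L1HS is the youngest subfamily of LINE-1 (L1) in the human genome and the subfamily that holds the copies still able to move. To investigate its transcription in the absence of SETDB1, the rows annotated as L1HS were taken from the deposited tables of full-length L1 loci. These were 307 of the 6437 loci listed, chosen by annotation alone, and they were 6000 to 6430 bp long with a median of 6030 bp. The RNA came from the near-haploid human cell line HAP1, annotated as chronic myelogenous leukemia, with the genotype WT (wild type) or SETDB1 knockout and no drug treatment listed for either. Both genotypes were grown in IMDM with fetal bovine serum and penicillin/streptomycin, and each gave 3 libraries made with a non-directional kit, in which the transcribed strand is lost. The titles call the libraries biological replicates. The labels do not state how many knockout clones were used, so SETDB1 loss and differences between clones cannot be told apart.

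A full-length L1 carries an internal promoter in its 5′ untranslated region, which transcribes the element in sense, and an antisense promoter in the same region that can start chimeric transcripts into the flanking DNA. The sense RNA encodes ORF1p, an RNA-binding protein, and ORF2p, an endonuclease and reverse transcriptase, which together copy the RNA into a new genomic site. SETDB1 trimethylates lysine 9 of histone H3. It is brought to repeats by TRIM28 (KAP1) bound to KRAB zinc finger proteins, and cooperates with the HUSH complex, which is known for silencing young L1 elements within transcribed introns.

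Young L1 copies are highly alike, so a short read can belong to several loci. How reads aligning to more than 1 copy were treated is not given in the sources used here, so reads of a locus may include reads of another copy.

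The L1 tables hold no strand and do not state whether positions count from 0 or from 1. Positions are therefore given as listed, on hg38. By GENCODE 29, 146 L1HS loci lay outside genes and 161 inside, of which 145 were purely intronic and 16 overlapped an exon. For a locus inside a gene, reads of the element cannot be told apart from reads of unspliced host RNA.

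The deposited L1 values were whole reads divided by 1 factor per library. Recovered reads were expressed per 1000000 gene counts of the same library (RPM). Gene counts were 8921959 to 10199215 per library, so that 3 reads, the smallest amount taken as measurable, equalled 0.294 to 0.336 RPM. Among loci with 1 to 20 reads, 65.2 to 82.3% of the read numbers were even, so single reads were often not independent fragments. In gene counts the knockout libraries agreed within sampling noise (chi-square per degree of freedom 0.956 to 0.991), whereas wild-type replicate 2 stood apart from replicates 1 and 3 (1.82 and 2.00). As no knockout pair differed, repeats of one library could not be told apart from closely matched cultures, and p-values measure only the spread between these libraries.

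The genotype labels were first checked with SETDB1 itself (ENSG00000143379). Its counts were 651, 543 and 519 in wild-type cells and 118, 106 and 118 in the knockout. It fell by 2.39 on the log2 scale (SE 0.079, adjusted p = 7.0e-43, edgeR). Of 8 haematopoietic markers, KIT alone passed the count filter, at a summed list level of 19.1 to 19.7 CPM (counts per 1000000) in wild-type cells and 16.1 to 17.6 in the knockout. CD33, MPO and SPI1 were at 0 in every library, so the labelled cell type was not visible in these markers. The fibroblast list summed to 16.3 to 17.4 and 17.6 to 19.5 CPM, with COL1A1 alone tested and LUM and DCN at 0.

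L1HS reads were more abundant in the knockout. The 307 loci together held 199.6, 176.6 and 177.8 RPM in wild-type cells and 332.6, 344.5 and 319.5 in the knockout. All knockout libraries lay above all wild-type libraries. The means were 185 ± 12.9 and 332 ± 12.5 (SD, n = 3 each), a ratio of 1.80. For this and the other sums below, an exact permutation test of 3 against 3 libraries cannot give a p below 0.1, and sums are given as descriptions.

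**Figure D1:**
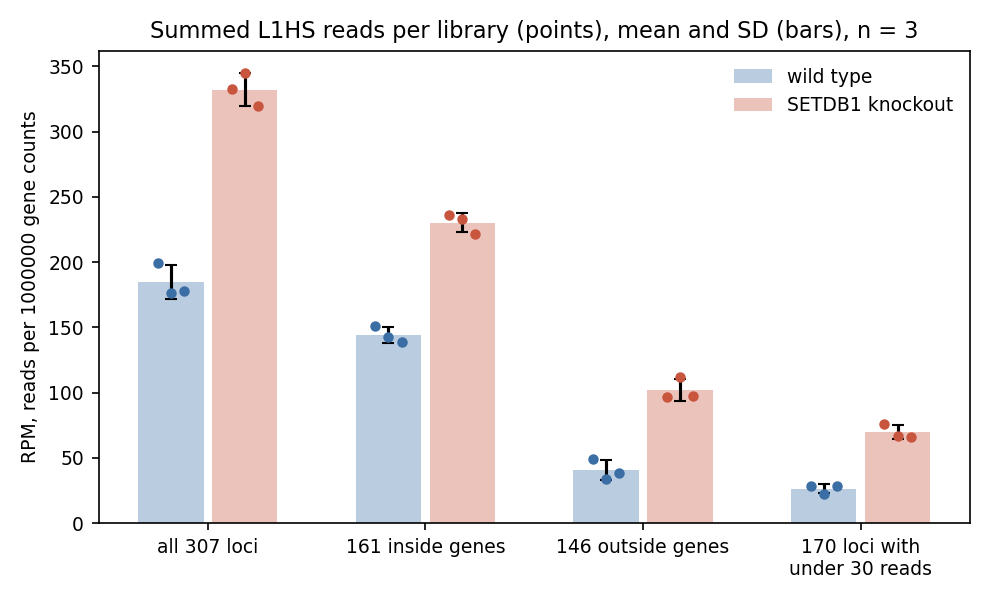
Summed L1HS reads in RPM for all loci, loci inside and outside genes, and loci with under 30 reads. Bars are group means with SD (n = 3), points are single libraries, and the knockout points (red) lie above the wild-type points (blue) in all 4 sets.

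More loci also gave reads. A read was present at 232, 193 and 214 loci in the wild-type libraries and at 283, 280 and 279 in the knockout libraries. Loci with 10 or more reads numbered 49, 39 and 36 against 100, 105 and 101. Gene counts, given above, were highest in wild-type replicate 1, and a depth-matched count of loci was not made.

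The ratio of the sums was larger outside genes. Loci outside genes summed to 48.8, 34.0 and 38.7 RPM in wild-type cells and 96.5, 111.7 and 97.6 in the knockout, a ratio of 2.52. Loci inside genes went from 144 ± 5.99 to 230 ± 7.42 (SD, n = 3 each), a ratio of 1.60. The share of L1HS reads outside genes was 24.5, 19.2 and 21.8% in wild-type cells and 29.02, 32.4 and 30.6% in the knockout, with no overlap between genotypes. Inside genes, the ratio was 1.58 for purely intronic loci and 1.82 for loci that overlap an exon.

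The 10 loci with the highest mean level were all intronic and held 30.7% of L1HS reads, but gave 17.5% of the summed rise. Their sum went from 66.7 ± 3.31 to 92.5 ± 5.64 RPM (SD, n = 3 each). The other 297 loci went from 118 ± 11.4 to 239.7 ± 9.29, a ratio of 2.03. The share of L1HS reads in the top 10 loci was thus 36.2% ± 2.12 in wild-type cells and 27.8% ± 1.19 in the knockout.

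Of the 307 members, 137 had at least 30 reads over the 6 libraries and were tested one by one. The other 170 were under that minimum, and 3 of them had no read in any library. The 170 summed to 26.5 ± 3.37 RPM in wild-type cells and 69.6 ± 5.35 in the knockout, which was 29.2% of the rise. Their mean was higher in the knockout at 148 loci and lower at 19. Across all members, 24 were at 0 in every wild-type library but not in the knockout, and 2 the reverse. The matching counts over all L1 loci were not taken, so these counts show nothing particular to L1HS. At the minimum itself, 6 loci had exactly 30 reads. One of them, in AC018680.1, had 0.0654 RPM in wild-type cells and 0.941 in the knockout, while a locus in RETNLB just under it, with 29 reads, had 0.490 and 0.508.

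For single loci, log2(RPM + 0.2) was compared with limma over all 1332 L1 loci that passed the minimum, with p-values adjusted by Benjamini-Hochberg and called below 0.05. Fold changes on this scale understate the change of low loci. Of the 137 L1HS loci tested, 51 rose and 3 fell, where 24.2% of all L1 loci tested were higher and 3.38% lower. On the deposited scale 27 were higher and 4 lower, with the filterByExpr filter 31 and 3, and with no filter 6 and 0. Without adjustment, 68 had p under 0.05 (limma). The matching share over all L1 loci was not taken, so this count shows nothing particular to L1HS. The median log2 fold change was 0.89 over the L1HS loci tested and 0.41 over all L1 loci tested. The lowest knockout library exceeded the highest wild-type one at 61 L1HS loci (all L1 loci: 33.1%), and the reverse was seen at 6 (6.16%). Because a locus could pass the minimum through the knockout alone, these counts describe the loci tested and not all members.

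**Figure D2:**
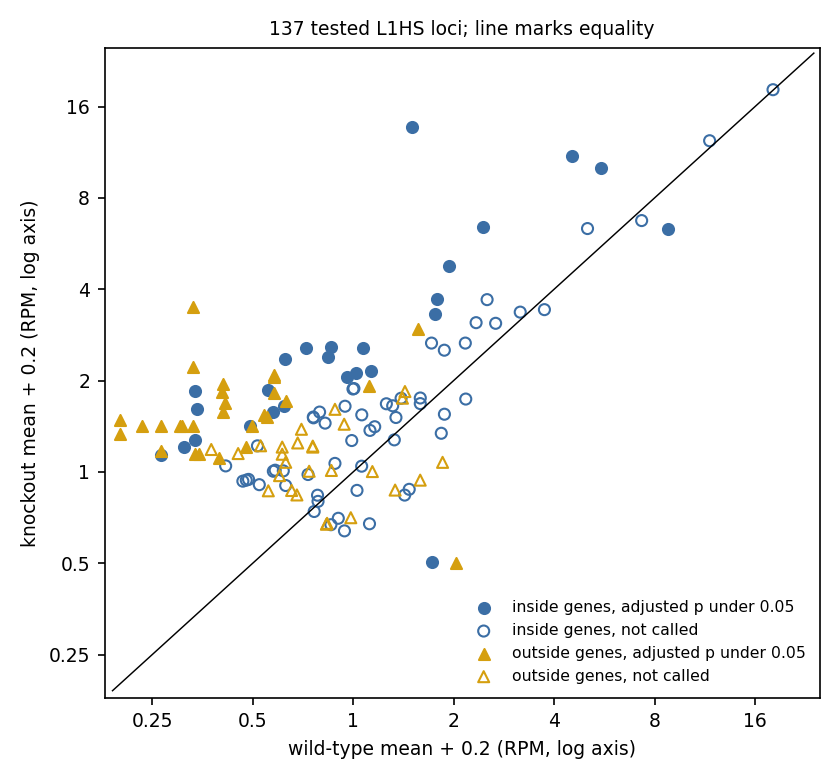
Mean wild-type level (x) against mean knockout level (y) of the 137 tested L1HS loci, both in RPM with 0.2 added, on log axes. Filled symbols passed the adjusted threshold (51 above the line and 3 below it), and the loci outside genes (triangles) sit mostly at the low wild-type end.

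Outside genes, 27 of 55 tested loci were higher and 1 lower, with a median log2 fold change of 1.33. Inside genes, 24 of 82 were higher and 2 lower, with a median of 0.61. Over L1 loci of all subfamilies, 126 of 320 (39.4%) were higher outside genes and 197 of 1012 (19.5%) inside, with medians of 0.93 and 0.32. The difference between the locations was not tested locus by locus. Chromosome X held 27 L1HS loci, and their sum went from 9.36 ± 0.523 to 24.9 ± 3.66 RPM (SD, n = 3 each). All 13 X loci tested had a positive log2 fold change and 7 were called higher. Over all L1HS loci tested, 113 of 137 were positive and 37.2% were higher. Over all L1 loci tested, 994 of 1332 were positive and 24.2% were higher. X loci of the other subfamilies were not counted apart.

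The highest wild-type level belonged to an intronic locus in HOMER2, a postsynaptic scaffold gene (chr15:82882882-82888919). It had 194, 172 and 145 reads in wild-type cells and 170, 174 and 191 in the knockout. The genotypes overlapped, and the 95% interval of the log2 difference was -0.24 to 0.27. The next locus, in an intron of HSD17B11, a hydroxysteroid dehydrogenase gene (chr4:87347104-87353146), likewise overlapped, with 129, 97 and 103 against 108, 133 and 120 reads (95% interval -0.22 to 0.37). Host counts of HSD17B11 changed by 0.48 (SE 0.050, adjusted p = 7.6e-14, edgeR). Those of HOMER2 changed by -0.11 (SE 0.035, adjusted p = 0.0059, edgeR).

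A locus in an intron of XPR1, the phosphate exporter gene (chr1:180866812-180872843), had 40, 42 and 41 reads in wild-type cells and 93, 123 and 106 in the knockout. All knockout libraries lay above the wild type. The log2 fold change was 1.28 (SE 0.18, adjusted p = 3.0e-07, limma). Gene counts of XPR1 moved the other way, by -0.28 (SE 0.049, adjusted p = 1.3e-06, edgeR).

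The XPR1 locus was the single L1HS locus that met a RefSeq promoter window, the bases around an annotated gene start, among 35116 windows searched. The gene is LOC124904464, an uncharacterised lncRNA (GRCh38.p14, chr1:180851888-180872884, minus strand), which starts 41 bases beyond the listed end of the locus and runs through it. Its window is shown because it marks where an annotated transcript enters this strongly covered locus. Capitals mark the 9 bases inside the locus, and the window covers chr1:180872835-180873134 on the minus strand.
LOC124904464: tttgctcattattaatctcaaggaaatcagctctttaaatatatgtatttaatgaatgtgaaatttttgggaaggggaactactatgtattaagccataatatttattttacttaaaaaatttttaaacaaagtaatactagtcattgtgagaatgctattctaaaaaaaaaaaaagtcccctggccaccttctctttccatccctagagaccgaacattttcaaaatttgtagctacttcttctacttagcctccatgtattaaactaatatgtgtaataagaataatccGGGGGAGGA

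A locus in an intron of TTC28 (chr22:28663284-28669315), known from tumour genomes as a frequent source of new L1 insertions, had 70, 50 and 33 reads in wild-type cells and 78, 114 and 100 in the knockout. In RPM the genotypes did not overlap, at 5.33 ± 1.69 and 9.82 ± 1.83 (SD, n = 3 each). The log2 fold change was 0.89 (SE 0.20, adjusted p = 4.8e-04, limma). On the deposited scale, whose factors follow the L1 reads themselves, it was 0.56 (adjusted p = 0.060) and past the threshold no longer. Gene counts of TTC28 differed by -0.03 (SE 0.055, adjusted p = 0.64, edgeR).

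The largest rise in reads was at a locus in an intron of the noncoding gene AC099520.1 (chr5:104518588-104524616). It had 12, 12 and 13 reads in wild-type cells and 110, 146 and 146 in the knockout. The means were 1.30 ± 0.11 and 13.5 ± 1.97 RPM (SD, n = 3 each), which placed it second of all L1HS loci in the knockout. The log2 fold change was 3.18 (SE 0.21, adjusted p = 2.5e-16, limma). Its host gene had at most 1 count in any library and was not tested.

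The locus in EMBP1, a pseudogene of embigin (chr1:121532231-121538261), had 19, 21 and 24 reads in wild-type cells and 51, 74 and 59 in the knockout, with no overlap. The log2 fold change was 1.37 (SE 0.23, adjusted p = 7.5e-06, limma), and the host rose too, by 0.94 (SE 0.19, adjusted p = 2.1e-05, edgeR). Host counts are uncertain because reads can be shared with related copies.

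Of the remaining highest loci, 1 was called lower and 3 were not called. In TTL, the tubulin tyrosine ligase gene (chr2:112503813-112509845), 86, 85 and 73 reads in the wild type stood against 70, 57 and 55 in the knockout. The log2 fold change was -0.48 (SE 0.18, adjusted p = 0.038, limma), and host counts changed by -0.22 (adjusted p = 3.7e-07, edgeR). Without wild-type replicate 1 or 2, or knockout replicate 2 or 3, the call at TTL was lost (adjusted p = 0.078, 0.15, 0.095 and 0.17, limma). In ME1, the cytosolic malic enzyme gene (chr6:83333953-83339981), the reads were 73, 63 and 67 against 75, 60 and 59. In FTO, an RNA demethylase gene (chr16:54042097-54048145, where AC007347.1 also lies), they were 49, 41 and 48 against 78, 55 and 49. In RB1, the retinoblastoma tumour suppressor gene (chr13:48465556-48471566), they were 32, 25 and 44 against 28, 33 and 35. At the last 3 loci the genotypes overlapped.

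The named loci with the largest positive fold changes, apart from AC099520.1, were nearly silent in the wild type. The locus at chr20:23426109-23432140, 4590 bp from the nearest annotated gene, had 4, 0 and 0 reads in wild-type cells and 34, 32 and 32 in the knockout (log2 fold change 3.61, SE 0.45, adjusted p = 2.4e-08, limma). Its wild-type reads all came from replicate 1. The same held at chr7:113776123-113782152, with 4, 0 and 0 against 16, 22 and 22 reads. At chr11:24327952-24334001 the counts were 2, 0 and 4 against 10, 20 and 22.

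At 2 of the named loci, both outside genes, no wild-type library had a read. At chr8:125582887-125588889 the knockout had 14, 14 and 10 reads, at least 4.05-fold higher when each wild-type library is set to 3 reads. At chrX:106469286-106475319 it had 8, 10 and 16 reads, at least 3.59-fold higher by the same floor. The latter lay 1846 bp from the nearest gene, and its call was lost when 0.05 was added in place of 0.2 (adjusted p = 0.064, limma).

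At chr17:70458957-70464987 there were 1, 0 and 0 reads against 12, 14 and 10. At chr3:90169568-90175598 there were 2, 0 and 0 against 11, 15 and 10. Inside genes, a locus in Z82195.2 (chrX:130517378-130523407) had 2, 0 and 2 against 14, 23 and 12, with no count for the host in any library. A locus in KCNIP4, a potassium channel-interacting protein gene (chr4:21159391-21165421), had 2, 2 and 0 against 16, 14 and 12, a log2 fold change of 2.31 (SE 0.55), while host counts changed by -0.69 (SE 0.22, adjusted p = 0.0070, edgeR). At all of these loci the genotypes were fully separated. With no or few wild-type reads, the fitted fold change depends on the value added before the logarithm.

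**Figure D3:**
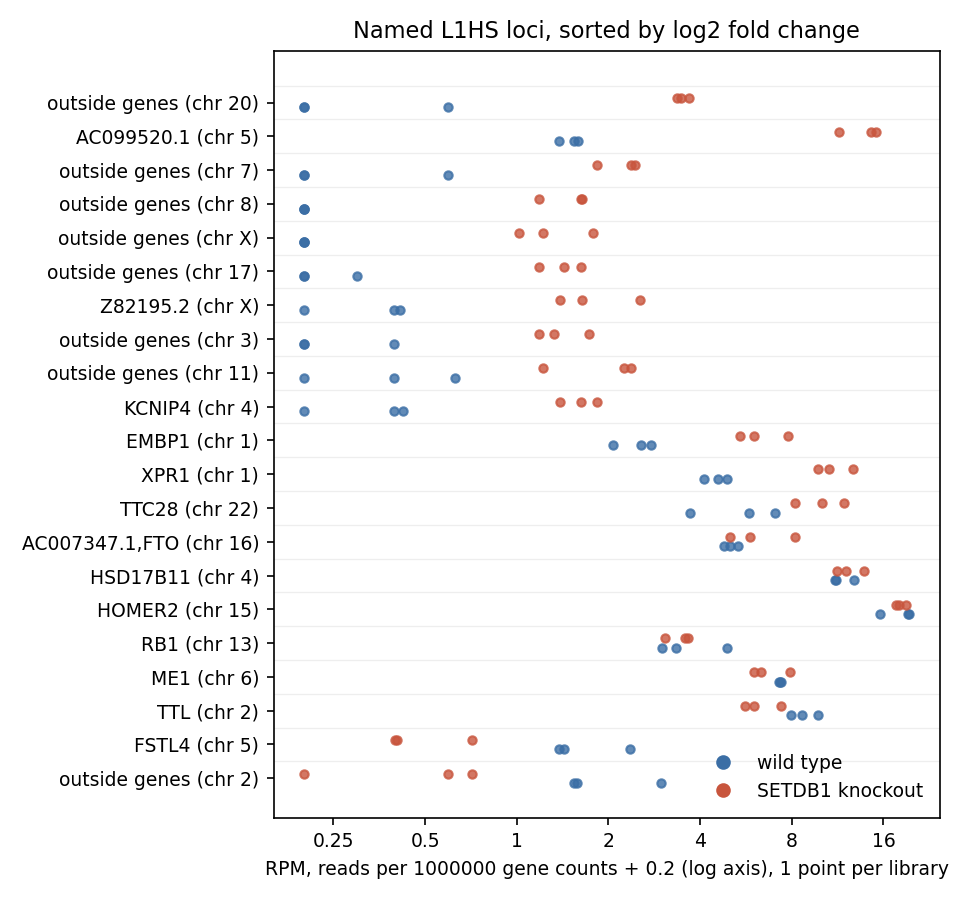
RPM (0.2 added, log axis) of the 21 named L1HS loci in each library, with wild type in blue and SETDB1 knockout in red. From top to bottom the loci run from the largest rise, at a locus on chromosome 20 with 4, 0 and 0 wild-type reads, through overlapping loci such as HOMER2, to the 3 loci called lower.

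Only 3 tested loci were called lower, TTL included. The locus at chr2:102566356-102572385, 32384 bp from the nearest gene, had 14, 12 and 26 reads in wild-type cells and 0, 5 and 4 in the knockout. All knockout libraries were below the wild type, with a log2 fold change of -2.14 (SE 0.49, adjusted p = 6.8e-04, limma). The locus in FSTL4, a follistatin-like gene (chr5:133583289-133589299), had 22, 11 and 11 reads against 5, 2 and 2, a log2 fold change of -1.78 (SE 0.47, adjusted p = 0.0030, limma). Without wild-type replicate 1 the FSTL4 locus was at -1.53 (adjusted p = 0.053). Gene counts of FSTL4 itself fell by 2.97 on the log2 scale (SE 0.11, adjusted p = 8.7e-41, edgeR).

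To set each intragenic locus beside its gene, the 60 tested loci that overlap a single annotated gene, itself tested, were paired with it. The median log2 fold change was 0.47 for the loci and -0.32 for the hosts, where the median over all genes tested was -0.0012. The locus was above its host in 52 of 60 pairs. Because a locus could pass the minimum through the knockout alone, this comparison can be tilted toward the locus. FRAS1, ANTXR2 and IMMP2L each host more than 1 of the loci. Across pairs, which share the same 6 libraries, Spearman's rho was 0.29 and Pearson's r 0.15. Of the 15 loci called higher, 4 had a host called higher, 7 a host called lower and 4 a host not called, where 25.5% of all genes tested were higher and 25.9% lower. Both loci called lower lay in hosts called lower. Among the pairs whose locus was not called, 9 hosts were higher, 24 lower and 10 not called. Hosts called lower were thus common throughout the pairs and not particular to loci that were called.

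**Figure D4:**
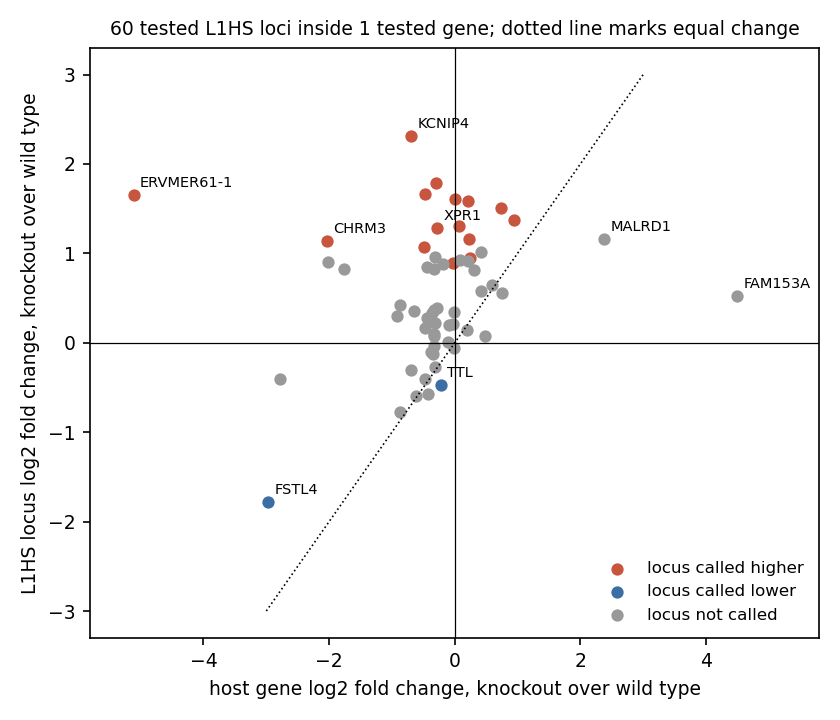
Log2 fold change (knockout over wild type) of the host gene (x, edgeR) against that of the L1HS locus within it (y, limma) for 60 pairs. Most points (52 of 60) lie above the dotted line of equal change, and FSTL4 is the called locus that fell together with a large fall of its gene. The loci shown had at least 30 reads over the 6 libraries, a minimum that the knockout alone could meet.

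Pairs moving apart were seen at several genes. In ERVMER61-1, a noncoding gene named for an endogenous retrovirus, the locus was at 1.65 and the gene at -5.11. In CHRM3, a muscarinic acetylcholine receptor gene, the locus was at 1.13 and the gene at -2.03. In FAM120C the values were 1.79 and -0.29. In SNX30, a sorting nexin gene on chromosome 9, both rose, with 1.51 for the locus and 0.74 for the gene. The paired hosts RABGAP1L, XPR1, ERVMER61-1, DENND1B, RYR2 and CHRM3 all lie on chromosome 1 and were all called lower. At XPR1, ERVMER61-1, DENND1B and CHRM3 the locus was called higher. The RefSeq gene LOC124904464 also runs through the XPR1 locus, as given above, and the pairing did not take it into account. At lower positions of this chromosome, EMBP1 was called higher and COL24A1 was not called. Whether these hosts fell together as neighbours was not tested.

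GENCODE 29 placed an exon of an annotated transcript in 16 L1HS loci, and in 10 of these a transcript start. The direction of the start was antisense to the element at 8 loci and sense at 2 (AC104088.1 and LSAMP-AS1). Direction was inferred from short stretches that the transcripts' L1HS bases share on the same or the opposite strand, taking exons that enter at the edge of a locus as sense. The 10 loci with a start summed to 8.17 ± 1.05 RPM in wild-type cells and 12.5 ± 2.55 in knockout cells (SD, n = 3 each), a ratio of 1.53.

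Among the loci with an antisense start, that of SSBP2, a single-stranded DNA-binding protein gene (chr5:81616091-81622140), had 21, 10 and 14 reads in wild-type cells and 33, 25 and 35 in the knockout. The log2 fold change was 0.94 (SE 0.28, adjusted p = 0.010, limma), with no overlap. The CHRM3 locus (chr1:239623499-239629523) had 11, 4 and 7 reads against 21, 14 and 20 (adjusted p = 0.017, limma). The AC010275.1 locus (chr5:111302239-111308262) had 7, 13 and 6 against 25, 19 and 14 (adjusted p = 0.037, limma), with the genotypes overlapping in RPM. The RAB3IP locus (chr12:69773411-69779441) had 12, 13 and 18 against 27, 23 and 23, separated but not called (adjusted p = 0.099, limma).

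The antisense start in FSTL4 lies in the locus that was lower in the knockout, as given above. The TBC1D32 locus (chr6:121162717-121168725), which also holds an antisense start, had 2, 5 and 6 reads against 4, 3 and 4 and was under the minimum.

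Of the loci with an exon read in sense at or near the element start, PHLPP1, a phosphatase gene (chr18:62906293-62912314), had 7, 22 and 15 reads against 39, 40 and 25 (log2 fold change 1.16, adjusted p = 0.0040, limma). At PHLPP1 the genotypes overlapped in RPM. LINC00381 (chr13:74426327-74432354) had 0, 3 and 0 against 6, 16 and 8 (2.03, adjusted p = 0.023). AC126773.1 (chr16:68583449-68589505) had 5, 4 and 2 against 14, 6 and 4 (0.70, adjusted p = 0.39), and LSAMP-AS1 (chr3:116360000-116366026) had 13, 6 and 5 against 8, 2 and 10 (-0.32, adjusted p = 0.69). AC104088.1 (chr2:172315271-172321297) had 4, 6 and 0 against 10, 6 and 2, RASEF (chr9:83049540-83055571) 2, 0 and 1 against 9, 2 and 8, and AC090735.1 (chr8:72875539-72881588) 2, 0 and 0 against 6, 2 and 8. These 3 were under the minimum.

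L1HS was then set beside the older subfamilies. L1HS took up 6.54, 6.12 and 5.97% of all L1 reads in wild-type cells and 7.80, 8.14 and 7.62% in the knockout, with no overlap. L1PA2, the subfamily closest in age, was compared with it directly. The ratio of L1HS to L1PA2 reads was 0.365 ± 0.013 in wild-type cells and 0.341 ± 0.017 in the knockout (SD, n = 3 each), with overlapping libraries (difference -0.024, two-sided exact permutation p = 0.2).

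The median log2 fold change of the tested loci was 0.82 for L1PA2, 0.44 for L1PA3, 0.27 for L1PA4 and 0.05 to 0.13 for L1PA5 to L1PA8. The number called higher was 124 of 356 in L1PA2 and 87 of 319 in L1PA3. It was 31 of 178 in L1PA4, 15 of 136 in L1PA5, 8 of 100 in L1PA6, 4 of 87 in L1PA7 and 3 of 19 in L1PA8. In L1PA2 the medians were 1.04 outside genes and 0.72 inside.

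**Figure D5:**
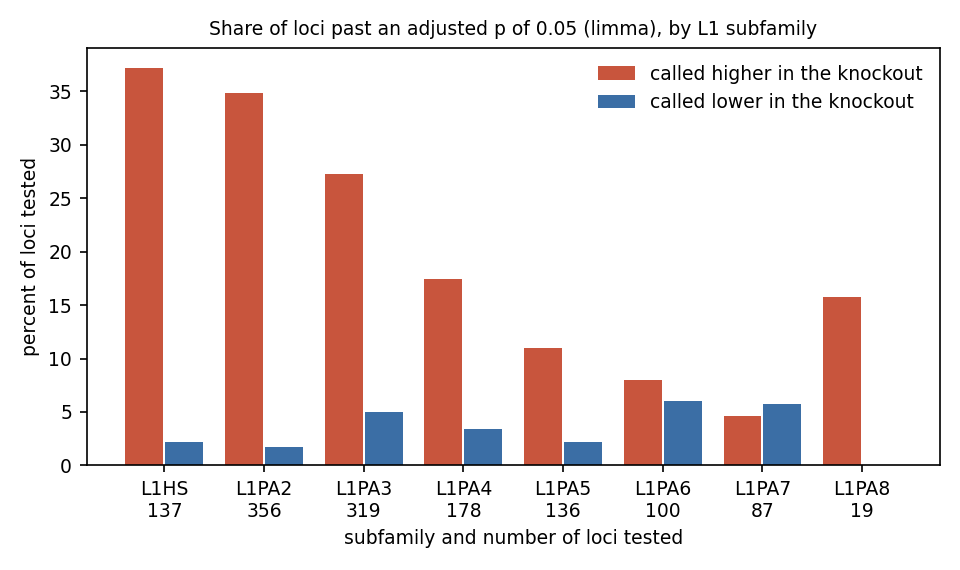
Percent of tested loci called higher (red) or lower (blue) in the knockout for each L1 subfamily, with the number tested below each name. L1HS (51 of 137 higher) and L1PA2 (124 of 356) stand beside each other. Both lie above the 24.2% of all L1 loci, as does L1PA3 (87 of 319).

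The copy number of chromosome segments was not measured. The 37 L1HS loci on chromosomes 1 and 9, set apart after the data had been seen, had a ratio of 2.59. They were summed together over whole chromosomes, so this ratio shows neither chromosome alone nor any segment. The other 270 loci went from 166 ± 12.5 to 285 ± 8.15 RPM (SD, n = 3 each), a ratio of 1.71.

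Genes known to silence L1 changed in both directions. Of 18 such genes tested with edgeR over 13778 genes, 7 rose and 7 fell, where 25.5% of all genes tested were higher and 25.9% lower, with a median log2 fold change of -0.03, where the median over all genes was 0.00. ZNF93, a KRAB zinc finger gene whose product binds older L1PA elements, went from 6, 4 and 5 counts to 261, 237 and 258 (log2 fold change 5.55, SE 0.19, adjusted p = 5.2e-42, edgeR). ATF7IP, the partner that stabilises SETDB1, rose by 1.62 (SE 0.044), and AGO2, an Argonaute gene, by 0.40 (SE 0.033). SUV39H1, another H3 lysine 9 methyltransferase gene, fell by 0.74 (SE 0.059). Among HUSH genes, FAM208A (TASOR) was at 0.30 and PPHLN1 at 0.18, both higher, and MPHOSPH8 at -0.06, not called. The HUSH effector MORC2 was higher at 0.27 and TRIM28 was lower at -0.11.

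Of 12 genes known to restrict L1, 10 were tested, and 2 were higher and 6 lower in the knockout, beside the same 25.5% and 25.9% of all genes. APOBEC3C, a cytidine deaminase gene, went from 40, 42 and 47 counts to 4, 6 and 4 (log2 fold change -3.24, SE 0.31, adjusted p = 1.4e-15, edgeR). BST2 (tetherin) fell by 1.46 (SE 0.045). SAMHD1, a dNTP hydrolase gene, rose by 0.49 (SE 0.034). TREX1 was listed at 0 in every library and APOBEC3B had at most 6 counts. The part of these genes in the L1HS levels was not tested.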

How the data were processed

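Per the labels, total RNA of HAP1 cells was sequenced with a non-directional or a directional kit. The 6 non-directional libraries have L1 tables and were used, and the directional gene tables were not used here. The authors deposited raw gene counts in HTSeq layout and, for L1 loci, a normalized signal on hg38. All signal values were whole multiples of the smallest value in their library (100% of values), from which reads were recovered. The submitters' processing notes name Trim Galore 0.4.4, STAR 2.6.0a, SAMtools 1.9, Picard 2.23.8, HTSeq 0.11.1 and DESeq2 3.14, without roles. Lines naming no gene (19.6 to 19.7% of listed reads) were left out. All 58735 gene IDs matched GENCODE 29. The promoter window comes from RefSeq. Some items are not reported here.

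L1 loci were tested with limma 3.58.1 (lmFit, eBayes with trend) and genes with edgeR 4.0.16 (glmQLFit, TMM, filterByExpr with minimum count 10 and total 15) in R 4.3.3, both tested on simulated data. Standard errors of edgeR fold changes are approximate. DESeq2 1.42.0 was an alternative. Named loci were the 10 with the highest mean and up to 10 with the largest change each way among those called, 21 in all. Loci shown for an annotated transcript or for contrast with their host were chosen after their values were seen, as was the share of reads outside genes. The members and lists were chosen with earlier results of these data known. Floors cover counting error only, since reads without molecular identifiers are not independent molecules.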

Additional observations from a re-analysis of the deposited data

How the results depend on the processing

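The L1HS sum kept its direction under all 13 alternatives, and the separation of the genotypes under those other than the replicate block, where it was not measured (log2 ratio 0.49 to 0.91), the lowest being the deposited scale. The sums outside and inside genes kept their direction under 11 each (0.98 to 1.49 and 0.32 to 0.71). The number of L1HS loci called, 54, was 34 with the filterByExpr filter (70 loci tested) and 31 on the deposited scale (27 higher, 4 lower). With no filter it was 6 (6 higher, 0 lower), when all 6437 loci were adjusted together. In that setting 103 L1HS loci had an unadjusted p under 0.05 (limma), with no share over all L1 loci taken. Leaving out 1 library gave 37 to 48 L1HS loci called. With edgeR 48 loci were higher and 3 lower, and with DESeq2 43 and 2. No locus called higher became lower under these settings, and 23 were higher under every setting with the same filter. Of the values for the 21 named loci under the alternatives, 332 kept their state, called or not, 21 lost a call and none was called in the opposite direction. HOMER2, HSD17B11, ME1, FTO and RB1 had no call to lose. The sign of the fold change varied between settings at HOMER2, HSD17B11, FTO and RB1, and not at ME1. With filterByExpr, chr8:125582887-125588889, chrX:106469286-106475319, chr17:70458957-70464987 and chr3:90169568-90175598 were not tested and give no value. Same-numbered libraries of the genotypes did not deviate together over L1 loci (correlation -0.0064, 0.015 and 0.034), so no pairing by number was seen. As the knockout libraries agreed within sampling noise in gene counts, this check could not exclude such a pairing. With the replicate number as a block, 53 L1HS loci were called (50 higher, 3 lower). Setting both named loci at 0 in the wild type to their bound left the median at 0.89. Both bounds lie above that median, so this step could not move it and tests nothing. Depth limits the 170 loci under 30 reads, which could not be tested singly.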

Other observations

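The genotypes differed at both partner genes of the fusion that defines chronic myelogenous leukemia. BCR rose by 0.64 and ABL1 by 1.40 on the log2 scale (SE 0.063 and 0.081, adjusted p = 6.2e-15 and 8.0e-27, edgeR). At the L1HS locus chr1:218009228-218015252, outside genes, wild-type replicate 1 had 34 reads and replicates 2 and 3 had 3 and 4, against 29, 31 and 22 in the knockout. This locus was called higher (adjusted p = 0.0057, limma) although the genotypes overlapped, and edgeR did not call it (log2 fold change 0.95, adjusted p = 0.11).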
